A study of Caenorhabditis elegans with 8 samples.

Results

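The 9 genes described here are *ptl-1*, which encodes the tau-like protein of *C. elegans*, and 8 tubulin genes, the α-tubulins *tba-1*, *tba-2*, *tba-4* and *mec-12* and the β-tubulins *tbb-1*, *tbb-2*, *tbb-4* and *mec-7*. They were taken from the table by gene symbol and make up 9 of the 46926 genes in the count table. All 9 passed the filter on low counts, which left 16808 genes for testing.

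Microtubules are hollow polymers of α- and β-tubulin dimers that serve as tracks for transport in axons and as the spindle in dividing cells. Tau is a protein that binds along neuronal microtubules, and in tauopathies it detaches and aggregates. PTL-1 is the worm member of the tau, MAP2 and MAP4 family and carries the microtubule-binding repeats of that family. Worms use several tubulin genes, some in most cells and others in a few neurons: *mec-7* and *mec-12* encode the β- and α-tubulin of the unusually wide microtubules in touch receptor neurons, and *tbb-4* encodes a β-tubulin of ciliated sensory neurons.

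The data are 8 libraries of polyA RNA from whole worms, of which 4 carry the label *smrd-1 Δ#1* and 4 the label non-Tg. *smrd-1 Δ#1* is a CRISPR deletion of the first exons of *smrd-1*, the worm homolog of the chromatin remodeler gene *SMARCAD1*, and non-Tg is the N2 wild type. Neither group carried a tau transgene, so the tau-like protein of these animals was their own PTL-1. Both groups were grown in the same way on plates with *E. coli* OP50, and the extraction protocol gives the L4 stage, while the description of the design speaks of adults. Since RNA came from whole animals, fewer cells of a type and less RNA per cell cannot be told apart. Nothing in the labels says that the replicates came from separate cultures, so p-values measure the spread between these libraries, which may be technical.

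Total counts ranged between 74704022 and 78008833 per library. Levels are given as CPM, the counts scaled to a common total after TMM normalization, a scaling by edgeR that sets the bulk of genes equal between libraries. *smrd-1* itself had 87.6, 85.6, 88.3 and 78.8 CPM in libraries labelled *smrd-1 Δ#1*, against 48.9, 42.1, 50.3 and 50.3 CPM in libraries labelled non-Tg. The counts of the targeted gene were thus higher, not lower, in the libraries that carry the deletion label (log2 fold change 0.83, SE 0.0813, edgeR's quasi-likelihood test, adjusted p = 0.00889). The deletion as the paper describes it takes more of the gene's 9 merged exons than it leaves, so only the last exons can still give counts. Why the counts were higher with fewer exons left was not tested. The table counts reads per gene and not per exon, so the loss of the deleted exons cannot be read from it. The labels could therefore not be checked, and each direction below holds for the libraries as labelled. Over all genes tested, edgeR called 26 genes at an adjusted p of at most 0.05, 15 higher and 11 lower in libraries labelled *smrd-1 Δ#1*. Across all genes tested, replicates 1 and 2 of both groups stood apart from replicates 3 and 4 of both groups. This division was read from the values, and no label describes it. For some genes, values within each side of it are given beside the main ones.

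The genes are spread over 4 chromosomes of the WBcel235 genome. *ptl-1* lies on chromosome III from 765184 to 771391 on the plus strand, in 6 merged exons that hold 2091 bases, and it is annotated with 6 transcripts. Of these exon bases, 134 (6.41%) overlap *tpst-2* on the same strand, a gene with 6 to 48 counts per library. *mec-12* lies on chromosome III from 3131574 to 3139234 and shares 76 exon bases (4.71%) with *Y53G8B.1* on the other strand, which had 450 to 636 counts. Strand was not used in counting, so reads from the bases shared with *Y53G8B.1* cannot be assigned to one of the genes. Reads from the bases shared with *tpst-2* could not be assigned by strand either, since both genes lie on the same strand. *tbb-1* (10740868 to 10742432) and *tbb-2* (4015910 to 4017627) are also on chromosome III, *tba-1* (9785781 to 9787624) and *tba-2* (12964674 to 12966795) on chromosome I, *tba-4* (10918706 to 10920211) on chromosome II, and *mec-7* (7774856 to 7776689) and *tbb-4* (9434452 to 9436893) on chromosome X. Tubulin coding sequences are much alike and reads matching several places were left out of the counts, so tubulin levels may be understated by an amount that was not measured.

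Per kilobase of exon, the most abundant of the 9 transcripts was *tbb-2*, which averaged 592 ± 83.9 CPM per kilobase in libraries labelled *smrd-1 Δ#1* and 612 ± 49.3 in libraries labelled non-Tg (SD, n = 4 each). *tba-2* came next, with 536 ± 63.7 CPM per kilobase in libraries labelled *smrd-1 Δ#1* and 567 ± 36.0 in libraries labelled non-Tg, and its 8 values overlapped those of *tbb-2*. These are the major β- and α-tubulin genes that, with *tbb-1* and *tba-1*, are used in many cells, including dividing embryonic cells. Below them the mean over all 8 libraries was 354 CPM per kilobase for *tbb-1*, 259 for *tba-1* and 151 for *tba-4*, and none of these 3 overlapped its neighbour in the order. The touch neuron genes were far lower, with 35.7 CPM per kilobase for *mec-12* and 25.9 for *mec-7*, whose ranges overlapped each other. *ptl-1* averaged 8.14 CPM per kilobase and *tbb-4* 2.61, the lowest of the 9, each without overlap with its neighbour above it.

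**Figure D1:**
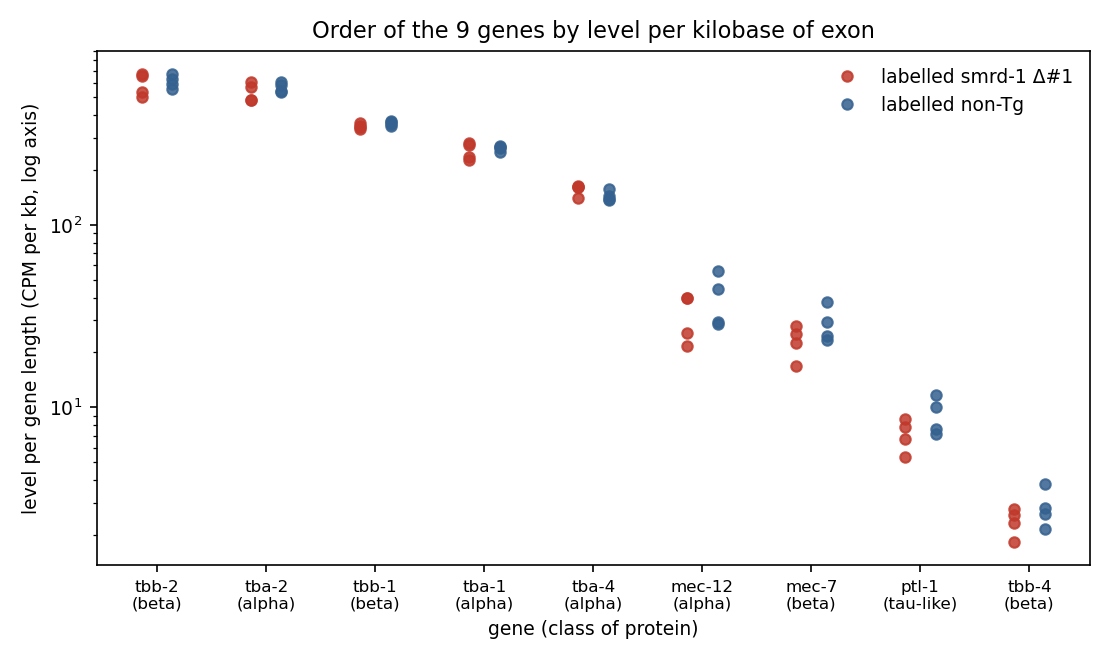
Level of each gene in CPM per kilobase of exon on a log axis, with 1 point per library, red for the smrd-1 Δ#1 label and blue for the non-Tg label. The genes run from tbb-2 at the top, with a mean of 602 over the 8 libraries, down to tbb-4 at 2.61, and the 2 groups overlap for every gene.

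*ptl-1* had 18.02, 16.4, 11.2 and 14.1 CPM in libraries labelled *smrd-1 Δ#1*, against 21.1, 24.5, 14.96 and 15.9 CPM in libraries labelled non-Tg, from 874 to 1744 counts per library. The groups overlapped, because replicates 1 and 2 of *smrd-1 Δ#1* were above replicates 3 and 4 of non-Tg. Mean levels were 14.9 ± 2.96 CPM in libraries labelled *smrd-1 Δ#1* and 19.1 ± 4.49 CPM in libraries labelled non-Tg (SD, n = 4 each). The log2 fold change was -0.36 (SE 0.203), with a 95% interval from -0.82 to 0.11, and it did not pass the test (edgeR, adjusted p = 0.679). An exact two-sided permutation test of the levels over the 70 arrangements of the libraries gave p = 0.2, where 0.0286 is the smallest value possible. Leaving out replicate 2 of non-Tg, its highest library, moved the log2 fold change to -0.21. As a fold the interval runs from 0.567 to 1.08, so these libraries do not tell a *ptl-1* level as low as 0.567 of non-Tg from one slightly above it.

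The β-tubulin *mec-7* had 39.4, 43.5, 26.4 and 35.3 CPM in libraries labelled *smrd-1 Δ#1*, against 59.2, 45.8, 38.4 and 36.6 CPM in libraries labelled non-Tg. Its partner, the α-tubulin *mec-12*, had 64.5, 64.4, 34.9 and 41.4 CPM in libraries labelled *smrd-1 Δ#1*, against 90.2, 71.9, 46.2 and 47.1 CPM in libraries labelled non-Tg. For both genes replicate 1 of non-Tg was the highest library and replicate 3 of *smrd-1 Δ#1* the lowest, and the groups overlapped. *mec-7* had a log2 fold change of -0.31 (SE 0.193, edgeR adjusted p = 0.692, exact permutation p = 0.229). For *mec-12* it was -0.32 (SE 0.278, edgeR adjusted p = 0.738, exact permutation p = 0.371). Neither gene passed the test. Both values rested in part on replicate 1 of non-Tg, without which the log2 fold change was -0.15 for *mec-7* and -0.10 for *mec-12*. Without replicate 3 of *smrd-1 Δ#1* it was -0.20 for *mec-7* and -0.18 for *mec-12*.

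*tbb-4* was the scarcest member, with 224 to 422 counts per library. It had 4.35, 4.02, 2.88 and 3.66 CPM in libraries labelled *smrd-1 Δ#1*, against 4.41, 5.93, 3.35 and 4.05 CPM in libraries labelled non-Tg. The groups overlapped, with non-Tg replicate 2 above the rest. The log2 fold change was -0.25 (SE 0.220, 95% interval -0.75 to 0.25, edgeR adjusted p = 0.738). It was -0.08 without replicate 2 of non-Tg, -0.38 without replicate 3 of non-Tg and -0.16 without replicate 3 of *smrd-1 Δ#1*.

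The broadly used α-tubulin genes differed little between the groups. *tba-1* had 415, 425, 356 and 346 CPM in libraries labelled *smrd-1 Δ#1*, against 404, 409, 382 and 403 CPM in libraries labelled non-Tg. *tba-2* had 961, 1017, 807 and 809.9 CPM in libraries labelled *smrd-1 Δ#1*, against 983, 1019, 895 and 904 CPM in libraries labelled non-Tg. In both genes replicates 3 and 4 of *smrd-1 Δ#1* were the lowest libraries, while replicates 1 and 2 of *smrd-1 Δ#1* were the highest for *tba-1* and within the range of non-Tg for *tba-2*. Their log2 fold changes were -0.05 (SE 0.0900, edgeR adjusted p = 0.850) for *tba-1* and -0.08 (SE 0.105, edgeR adjusted p = 0.808) for *tba-2*.

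*tba-4*, another broadly used α-tubulin gene, was the only member with a mean above that of non-Tg. It had 228, 229.8, 199 and 228 CPM in libraries labelled *smrd-1 Δ#1*, against 195, 194, 204 and 223 CPM in libraries labelled non-Tg. Replicate 3 of *smrd-1 Δ#1* lay within the range of non-Tg, and the other *smrd-1 Δ#1* libraries lay above that range. The log2 fold change was 0.12 (SE 0.0813, edgeR adjusted p = 0.706, exact permutation p = 0.0857). Within replicates 1 and 2 the difference of log2 CPM was 0.24, and within replicates 3 and 4 it was 0.00.

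The broadly used β-tubulin *tbb-1* was the steadiest of the 9 genes, with its highest library 1.09 times its lowest. It had 516, 533, 496 and 505 CPM in libraries labelled *smrd-1 Δ#1*, against 543, 538, 523 and 510.2 CPM in libraries labelled non-Tg. *tbb-2* had 996, 1015, 811 and 766 CPM in libraries labelled *smrd-1 Δ#1*, against 952, 1016, 898 and 842 CPM in libraries labelled non-Tg. Both genes overlapped between the groups. *tbb-1* had a log2 fold change of -0.04 (SE 0.0683, edgeR adjusted p = 0.834), and its 95% interval as a fold ran from 0.870 to 1.08, the narrowest of the 9. *tbb-2* had a log2 fold change of -0.05 (SE 0.119, edgeR adjusted p = 0.896), and its sign turned when replicate 4 of *smrd-1 Δ#1* was left out (0.01).

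**Figure D2:**
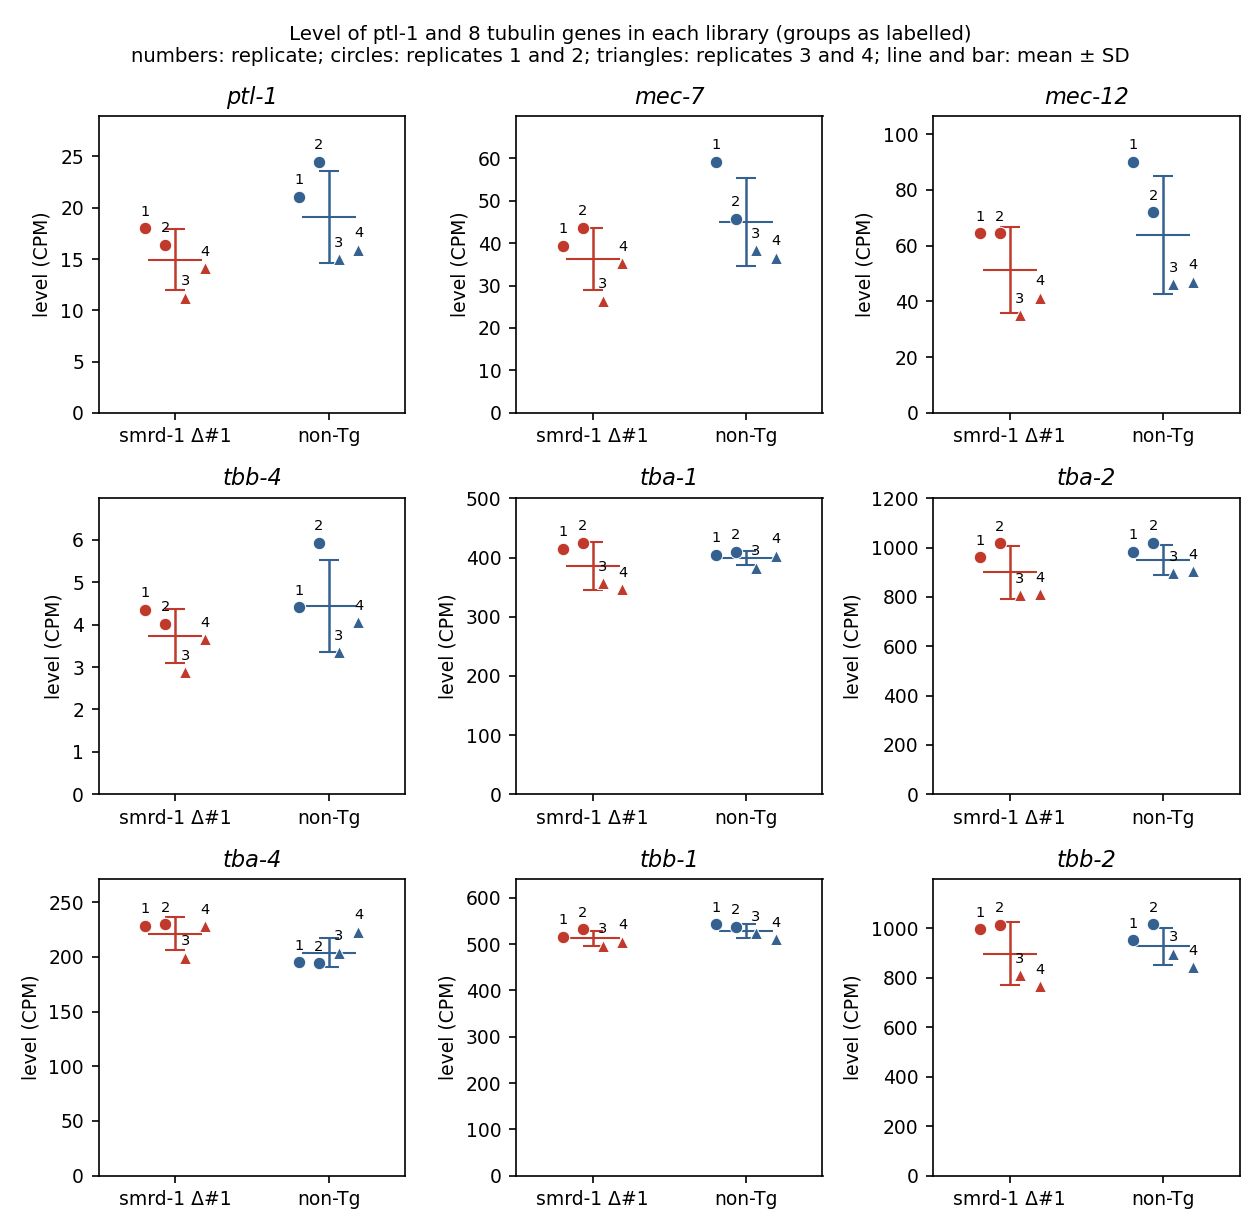
Level in CPM of each gene in each library, libraries labelled smrd-1 Δ#1 on the left and non-Tg on the right of each panel, with circles for replicates 1 and 2, triangles for replicates 3 and 4, and a line and bar for the mean ± SD (n = 4). In ptl-1, mec-7 and mec-12 the triangles lie below the circles in both groups, and within each symbol the smrd-1 Δ#1 libraries lie below the non-Tg libraries.

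Over the 9 genes, 0 were called by edgeR at an adjusted p of at most 0.05, where 0.155% of all genes tested were called, and 0 had an unadjusted p under 0.05, where 7.74% of all genes did and 3.84% were lower at that level. DESeq2 also called 0 of the 9, with 0 at an unadjusted p under 0.05, and called 0.992% of the genes it tested. No member had groups that did not overlap in CPM, against 5.2% of all genes. The log2 fold change was below 0 for 8 of the 9 members, against 51.4% of all genes, with a median of -0.08 over the members and -0.01 over all genes tested. Values at or below -0.25 were found for 4 members (*ptl-1*, *mec-7*, *mec-12* and *tbb-4*), against 20.1% of all genes. *tbb-4* lay at that limit and was above it in several other fits, for example at -0.24 with the replicate block and at -0.08 without non-Tg replicate 2, which leaves 3 or fewer members past it. The other 5 members lay between -0.08 and 0.12.

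*ptl-1*, *mec-7*, *mec-12* and *tbb-4* varied most within a group. Their coefficient of variation was 16.98% to 33.2% within a group, against 2.79% to 14.2% for the 5 broadly used tubulin genes. Much of this spread followed the division of the replicates. *mec-12* was lower in replicates 3 and 4 than in replicates 1 and 2, over both groups, by a log2 difference of -0.77. The same difference was -0.50 for *ptl-1*, -0.46 for *mec-7* and -0.42 for *tbb-4*, and for the 5 broad genes it ran from -0.26 in *tbb-2* to 0.01 in *tba-4*.

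Within each side of that division, both libraries labelled *smrd-1 Δ#1* were below both labelled non-Tg for *ptl-1*, *mec-7*, *mec-12* and *tbb-1*, which is 4 of 9 members, against 11.9% of all genes tested. The difference of mean log2 CPM of *ptl-1* was -0.40 for replicates 1 and 2 alone and -0.30 for replicates 3 and 4 alone. For *mec-7* these differences were -0.33 and -0.29, and for *mec-12* -0.32 and -0.30, in the same order. With a covariate for the division, the log2 fold change was -0.35 for *ptl-1* (SE 0.0976, edgeR unadjusted p = 0.00703, adjusted p = 0.0717). The same fit gave -0.31 for *mec-7* (SE 0.111, edgeR unadjusted p = 0.0226, adjusted p = 0.122) and -0.31 for *mec-12* (SE 0.0832, edgeR unadjusted p = 0.00533, adjusted p = 0.0630). So 3 members reached an unadjusted p under 0.05 in that fit, where 26.9% of all genes did, and 0 were called, where 5.53% of all genes were. In the fit blocked by replicate number, the same 3 members had an unadjusted p under 0.05, where 23% of all genes did, and 0 were called (edgeR adjusted p = 0.119 for *ptl-1*, 0.191 for *mec-7* and 0.106 for *mec-12*). The covariate was added after the values had been seen.

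**Figure D3:**
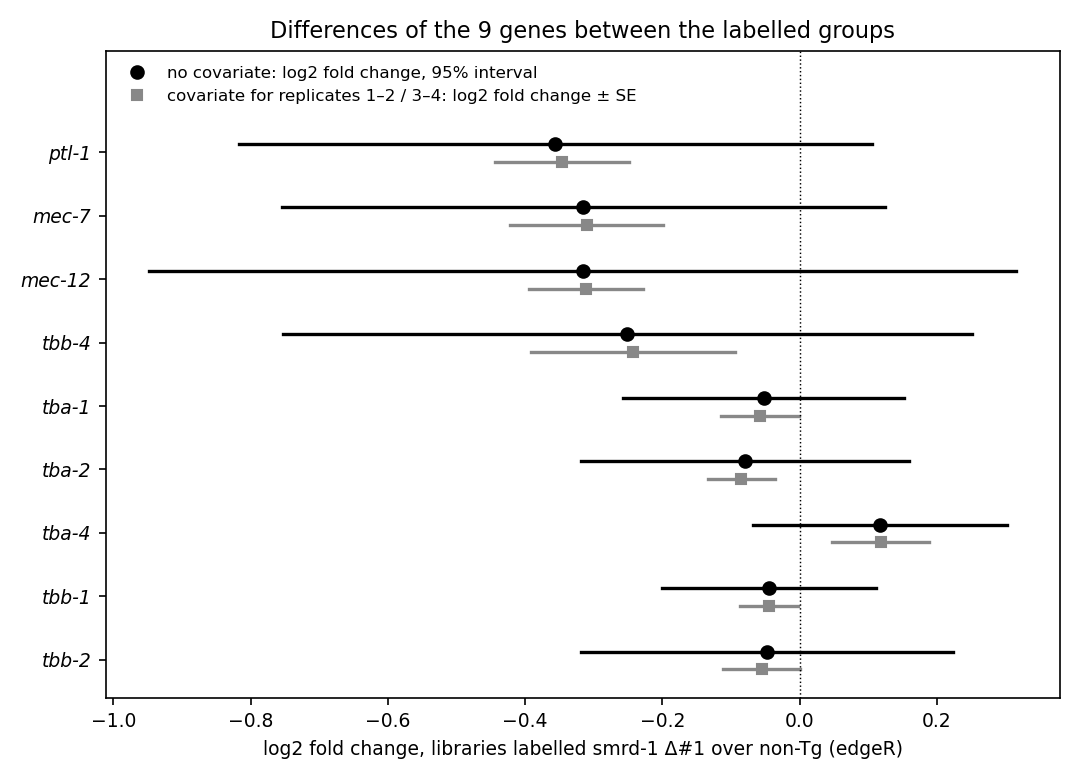
Log2 fold change of each gene, libraries labelled smrd-1 Δ#1 over non-Tg, from edgeR without a covariate (black circles, 95% interval) and with a covariate for the division of the replicates (grey squares, ± SE). All 9 black intervals cross 0, and the grey values of ptl-1, mec-7 and mec-12 lie between -0.35 and -0.31.

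The share of each of the 8 tubulin members in the summed members of its class overlapped between the groups. Of the summed level per kilobase of the 4 α-tubulin members, *tba-2* held 54.7% ± 0.788 in libraries labelled *smrd-1 Δ#1* and 55.8% ± 1.23 in libraries labelled non-Tg (SD, n = 4 each). *tba-1* held 25.96% ± 0.566 in libraries labelled *smrd-1 Δ#1* and 25.99% ± 0.648 in libraries labelled non-Tg. *tba-4* held 16.1% ± 1.33 in libraries labelled *smrd-1 Δ#1* and 14.3% ± 1.43 in libraries labelled non-Tg, and its share was larger in *smrd-1 Δ#1* by 2.10 percentage points within replicates 1 and 2 and by 1.52 within replicates 3 and 4, while the groups of 4 overlapped. *mec-12* held 3.20% ± 0.646 in libraries labelled *smrd-1 Δ#1* and 3.87% ± 1.14 in libraries labelled non-Tg. On each side of the division both *smrd-1 Δ#1* shares were below both non-Tg shares, with differences of -1.04 percentage points for replicates 1 and 2 and -0.31 for replicates 3 and 4. Of the β-tubulin members, *tbb-2* held 61.1% ± 2.65 in libraries labelled *smrd-1 Δ#1* and 61.0% ± 1.24 in libraries labelled non-Tg, and *mec-7* held 2.38% ± 0.334 and 2.85% ± 0.538 in the same order of groups. The ratio of the 4 summed α-tubulin members to the 4 summed β-tubulin members was 1.01 ± 0.0192 in libraries labelled *smrd-1 Δ#1* and 1.01 ± 0.0386 in libraries labelled non-Tg. Over the 8 libraries this ratio ran from 0.983 to 1.07. In the protein, each dimer holds an α and a β subunit, but this ratio covers the 8 members only. Other tubulin genes were not in the sums, and reads matching several places were left out of the counts. The ratio and the shares thus do not give the proportions of all tubulin transcripts. These shares are descriptions and were not tested.

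**Figure D4:**
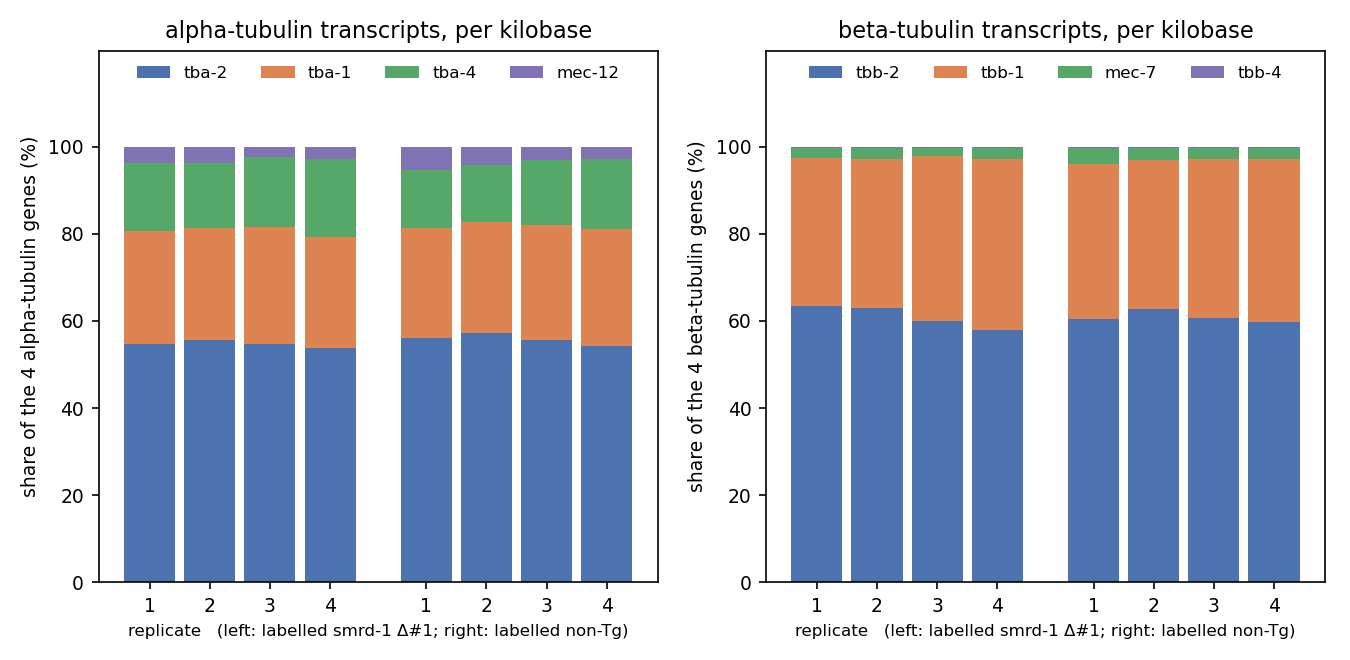
Share of each gene in the summed level per kilobase of the 4 α-tubulin (left) and 4 β-tubulin (right) genes, with 1 bar per library, the 4 libraries labelled smrd-1 Δ#1 left of the 4 labelled non-Tg. tba-2 holds 53.8% to 57.3% of the summed level of these 4 α-tubulin genes in all 8 libraries, and tbb-4, at 0.246% and 0.281% on average, is too thin to see.

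Other tubulin genes were set beside the members. Of 7 on the list, 5 had a log2 fold change below 0, against 51.4% of all genes, with a median of -0.13. EdgeR called 0 of 7, with 0 at an unadjusted p under 0.05, where 7.74% of all genes were. *tba-7*, an α-tubulin gene, had 20.3, 19.4, 9.56 and 9.91 CPM in libraries labelled *smrd-1 Δ#1*, against 32.7, 29.8, 15.5 and 12.9 CPM in libraries labelled non-Tg. The *smrd-1 Δ#1* libraries were below the non-Tg libraries within each side of the division but not across it. Its log2 fold change was -0.62 (SE 0.378, edgeR adjusted p = 0.690), and -0.60 with the covariate for the division, where it was called (SE 0.0819, edgeR adjusted p = 0.0130). The covariate fit called 1 of the 7, against 5.53% of all genes. *tba-5*, an α-tubulin of sensory cilia, had 1.93, 2.08, 0.873 and 1.49 CPM in libraries labelled *smrd-1 Δ#1*, against 2.76, 2.92, 1.61 and 2.08 CPM in libraries labelled non-Tg (log2 fold change -0.56, SE 0.317, edgeR adjusted p = 0.679). The γ-tubulin *tbg-1*, which nucleates microtubules at the centrosome, averaged 46.5 ± 4.14 CPM in libraries labelled *smrd-1 Δ#1* and 42.2 ± 3.34 CPM in libraries labelled non-Tg (SD, n = 4 each, log2 fold change 0.14, edgeR adjusted p = 0.703).

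Among 28 genes whose proteins bind microtubules or set their dynamics, 15 had a log2 fold change above 0 and 13 below, with a median of 0.03. Of all genes, 51.4% were below 0. EdgeR called 0 of the 28, with 3 at an unadjusted p under 0.05, where 7.74% of all genes were. The largest difference was in *cls-3*, a gene of the CLASP family of microtubule-stabilizing proteins. It had 11.4, 13.1, 7.99 and 9.63 CPM in libraries labelled *smrd-1 Δ#1*, against 20.0, 23.7, 21.4 and 22.2 CPM in libraries labelled non-Tg. Every *smrd-1 Δ#1* library was below every non-Tg library. The log2 fold change was -1.05 (SE 0.158), which just missed the threshold in edgeR (adjusted p = 0.0681) and passed it in DESeq2 (adjusted p = 1.08e-06) and in edgeR with the covariate for the division (adjusted p = 0.00708). The covariate fit called 1 of the 28 genes, against 5.53% of all genes. DESeq2 also called 1 of them, against 0.992% of the genes it tested. *mei-2*, a subunit of the microtubule-severing enzyme katanin in the oocyte, averaged 27.0 ± 8.19 CPM in libraries labelled *smrd-1 Δ#1* and 17.5 ± 5.09 CPM in libraries labelled non-Tg (SD, n = 4 each, log2 fold change 0.62, edgeR adjusted p = 0.639).

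The machinery that folds tubulin differed less. Of 20 folding genes (the chaperonin, prefoldin and the tubulin cofactors), 9 had a log2 fold change above 0 and 11 below, where 51.4% of all genes were below. All 20 lay between -0.08 and 0.16, and edgeR called 0. *tbcd-1*, a tubulin cofactor, had a log2 fold change of 0.16 (SE 0.102, edgeR adjusted p = 0.699), and *tbce-1*, another cofactor, 0.15 (SE 0.0999, edgeR adjusted p = 0.703). Of 11 tested genes that modify tubulin, 7 were below 0, against 51.4% of all genes, with a median of -0.06, and 0 were called. *mec-17*, the acetyltransferase of α-tubulin in touch receptor neurons, averaged 38.6 ± 4.36 CPM in libraries labelled *smrd-1 Δ#1* and 46.3 ± 9.31 CPM in libraries labelled non-Tg (SD, n = 4 each, log2 fold change -0.26, SE 0.149, edgeR adjusted p = 0.678). *ccpp-6*, a carboxypeptidase that shortens glutamate side chains of tubulin, averaged 0.532 ± 0.0703 CPM in libraries labelled *smrd-1 Δ#1* and 0.401 ± 0.0585 CPM in libraries labelled non-Tg (SD, n = 4 each, log2 fold change 0.41, edgeR adjusted p = 0.695). Of 15 genes of axonal transport motors, 11 were below 0, against 51.4% of all genes, with a median of -0.03, and 0 were called. The kinesin light chain *klc-1* had a log2 fold change of 0.37 (SE 0.197, edgeR adjusted p = 0.665) and the dynein light intermediate chain *dli-1* -0.10 (SE 0.0702, edgeR adjusted p = 0.706).

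Genes linked to touch receptor neurons, cilia and neurons were read the same way, and their use in other cells was not examined. Of 15 touch receptor neuron genes, 14 had a log2 fold change below 0, where 51.4% of all genes did. Their median was -0.30, against -0.01 over all genes. Their summed level was 129 to 169 CPM in libraries labelled *smrd-1 Δ#1* and 148 to 195 CPM in libraries labelled non-Tg. EdgeR without a covariate called 0, with 1 gene at an unadjusted p under 0.05, where 7.74% of all genes were. That gene was *mec-6*, whose product helps assemble the touch channel (log2 fold change -0.63, SE 0.226, edgeR adjusted p = 0.589). *mec-1*, an extracellular matrix gene of touch neurons, averaged 15.2 ± 3.29 CPM in libraries labelled *smrd-1 Δ#1* and 20.2 ± 3.73 CPM in libraries labelled non-Tg (SD, n = 4 each, log2 fold change -0.41, edgeR adjusted p = 0.640). With the covariate for the division, edgeR called 2 of these 15 genes, both lower, where 5.53% of all genes were called. They were *mec-1* (-0.42, SE 0.0907, adjusted p = 0.0407) and *mec-5*, a collagen gene needed for touch (-0.31, SE 0.0513, adjusted p = 0.0228). *mec-4*, a channel subunit that defines these neurons, averaged 1.70 CPM in libraries labelled *smrd-1 Δ#1* and 1.77 CPM in libraries labelled non-Tg, with a log2 fold change of -0.06. It was -0.03 for *mec-3* and -0.18 for *mec-10*. The summed level rested most on *mec-5*, *mec-8* and *mec-15*, at 39.7, 32.3 and 25.55 CPM on average in libraries labelled non-Tg. *mec-15* was the only gene of the list above 0 (0.27).

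Of 38 tested cilium genes, 32 were below 0, against 51.4% of all genes, with a median of -0.27. EdgeR called 0, with 3 at an unadjusted p under 0.05, where 7.74% of all genes were. The groups did not overlap for 1 cilium gene, against 5.2% of all genes. *che-3*, the dynein heavy chain of transport in cilia, had 5.27, 4.65, 4.30 and 4.37 CPM in libraries labelled *smrd-1 Δ#1*, against 5.85, 7.17, 5.99 and 5.89 CPM in libraries labelled non-Tg, with no overlap (log2 fold change -0.42, SE 0.144, edgeR adjusted p = 0.568). *osm-5*, another gene of transport in cilia, had a log2 fold change of -0.66 (SE 0.258, edgeR adjusted p = 0.612). Of 13 pan-neuronal genes, 10 were below 0, against 51.4% of all genes, with a median of -0.21. Their summed level was 465 to 629.8 CPM in libraries labelled *smrd-1 Δ#1* and 548 to 679 CPM in libraries labelled non-Tg. EdgeR called 0 of the 13 without a covariate and 1 with the covariate for the division, where 5.53% of all genes were called. The 1 was the neuropeptide convertase gene *egl-3*, which was lower (-0.26, SE 0.0579, adjusted p = 0.0412). *ric-19*, a gene of dense-core vesicles, lay on the other side of 0, with 6.29, 5.93, 4.89 and 5.75 CPM in libraries labelled *smrd-1 Δ#1*, against 4.25, 4.03, 4.03 and 4.28 CPM in libraries labelled non-Tg, and no overlap. Its log2 fold change was 0.46 (SE 0.139), not called by edgeR (adjusted p = 0.487) and called by DESeq2 (adjusted p = 0.0188). *sbt-1*, a neuropeptide-processing chaperone gene, had a log2 fold change of -0.29 (SE 0.141, edgeR adjusted p = 0.646).

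Markers of other tissues were read in the same way, and edgeR without a covariate called 0 genes in the 14 lists. All 12 oocyte and yolk genes had a log2 fold change above 0, where 51.4% of all genes were below 0. Their median was 1.05, and 8 had an unadjusted p under 0.05 in edgeR, where 3.9% of all genes were higher at that level. Their summed level was 7035 to 19400 CPM in libraries labelled *smrd-1 Δ#1* and 2534 to 7208 CPM in libraries labelled non-Tg, highest in replicate 3 of both groups. The yolk protein gene *vit-3* averaged 699 ± 380 CPM in libraries labelled *smrd-1 Δ#1* and 181 ± 114 CPM in libraries labelled non-Tg (SD, n = 4 each, log2 fold change 1.95, edgeR adjusted p = 0.449, DESeq2 adjusted p = 0.0169). *vit-4* was alike, with a log2 fold change of 1.96 (edgeR adjusted p = 0.452, DESeq2 adjusted p = 0.0190). All 8 sperm genes (median 0.35, for example *msp-31* at 0.57 and *msp-142* at 0.55) and all 8 germ cell genes (median 0.17, for example the P granule genes *pgl-3* at 0.25 and *pgl-1* at 0.19) were also above 0, and edgeR without a covariate called 0 of either. With the covariate for the division, edgeR called *msp-142* (adjusted p = 0.0324), *vit-3* (adjusted p = 0.0372) and *vit-4* (adjusted p = 0.0396), all higher. These were 1 of 8 sperm genes and 2 of 12 oocyte and yolk genes, where 5.53% of all genes were called. The summed germ cell level was 1691 to 1957 CPM in libraries labelled *smrd-1 Δ#1* and 1496 to 1660 CPM in libraries labelled non-Tg, without overlap.

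Of the somatic lists, 5 of 5 muscle genes were below 0 (median -0.18, for example *unc-22* at -0.23 and *unc-15* at -0.18). So were 4 of 5 intestine genes (median -0.20, for example *elt-2* at -0.26, with *ges-1* at 0.11). Of 4 epidermis genes, 2 were below 0, among them the larval collagen *dpy-7* at -0.33. The adult collagen *col-19* was above 0, at 1.2. The value of *dpy-7* hid a change of sign across the division of the replicates. Its difference of mean log2 CPM was 0.62 within replicates 1 and 2 and -1.73 on the other side. The groups overlapped on neither side for this gene. Without a covariate edgeR called no gene in the somatic lists. With the covariate for the division it called the intestine genes *act-5*, an actin of the gut brush border (-0.27, adjusted p = 0.0255), and *asp-1*, an aspartyl protease (-0.20, adjusted p = 0.0454), both lower. These were 2 of 5 intestine genes, where 5.53% of all genes were called in that fit. Each marker tested had at least 1 count in every library, except for 1 cilium gene at 0 in a library. The part of these tissue and stage markers in the values of *ptl-1* and the tubulin genes was not tested.

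**Figure D5:**
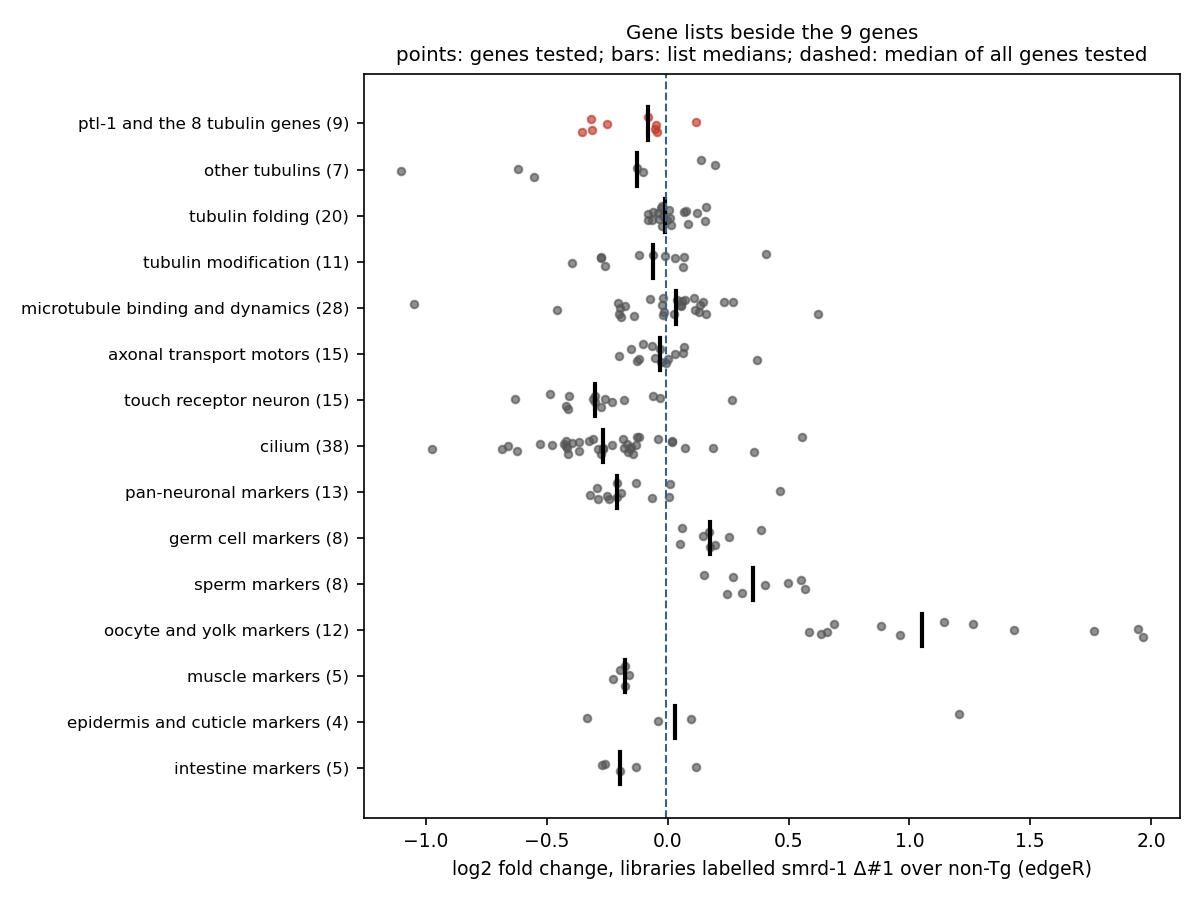
Log2 fold change of each tested gene, libraries labelled smrd-1 Δ#1 over non-Tg (edgeR), for the 9 genes (red) and the 14 lists (grey), with the number of genes in brackets, a black bar at each median and a dashed line at the median of all genes tested. The touch receptor neuron, cilium and pan-neuronal medians lie at -0.30, -0.27 and -0.21, left of the 9 genes at -0.08, and the oocyte and yolk median lies at 1.05.

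The genes whose pattern over the 8 libraries was most like that of *ptl-1* were *prx-1*, *tag-343* and *nrx-1*, with a root mean square difference of centred log2 CPM of 0.0466, 0.0561 and 0.0624, where the median over all genes was 0.419. For *mec-7* they were *T23F4.2* (0.0474), *nlp-61* (0.0617) and *pbo-1* (0.0639), against a median of 0.414. For *mec-12* they were *T23C6.4* (0.0546), *F49E2.2* (0.0550) and *daf-22* (0.0664), against a median of 0.504. *nrx-1* encodes neurexin, a synaptic adhesion protein, *prx-1* a factor for the import of peroxisomal proteins, and *daf-22* a peroxisomal thiolase. Likeness here includes the division of the replicates, which the libraries share.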

How the data were processed

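Whole-worm polyA RNA was sequenced in 8 libraries, grouped by their titles. The authors aligned reads with STAR to WBcel235. Their deposited counts, made with featureCounts 2.0.1, are whole numbers for each gene without normalization. The header names annotation release 112, while the methods name another release, and exons were checked here against release 115, which has the same exons for all 9 members. The library kit kept strand, but counting did not use it, mates were counted singly (60.5% to 63.3% of counts of at least 100 were even), and reads with several places were left out. Precision covers counting error and the spread of 4 libraries a group. A second table with the authors' DESeq2 comparison (mean, log2 fold change, SE, statistic, p-values) was used only for gene symbols.

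Counts were tested with edgeR 4.0.16 (TMM, filter by expression, quasi-likelihood test) in R 4.3.3, with Benjamini-Hochberg adjustment over 16808 genes. The SE is the log2 fold change over the root of F. DESeq2 1.42.0, other filters and size factors, a replicate block and leaving out each library were alternatives. Scripts were tested on simulated data. Figures used matplotlib 3.10.9. Named genes were the 9 members, *smrd-1*, in each of 14 lists every called gene or else the 2 with the smallest unadjusted p, and the nearest patterns of *ptl-1*, *mec-7* and *mec-12*. *tba-8*, *tbg-1*, *mec-3*, *mec-4*, *mec-8*, *mec-10*, *mec-15* and the genes called only by another fit were chosen after their values were seen. Of 191 list genes 189 were tested (*klp-11* and a *ttll* gene were not). Members and lists were chosen with earlier results of these data known.

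The replicate numbers are shared by the groups. Same-numbered libraries correlated at 0.221 to 0.489 in their deviations from group means, all above 0.1, so the block was treated as a pairing. Libraries of another number on the same side of the division correlated at 0.255 to 0.516, and 4 of 8 libraries correlated best with their own number. The mean was 0.364 for the same number and 0.375 for another number on the same side. These correlations thus cannot tell pairing by number from the division.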

Additional observations from a re-analysis of the deposited data

Results flagged for a closer look

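*tba-4* in libraries labelled *smrd-1 Δ#1* had 1 library far from the others: replicate 3, at 199 CPM, against 228 to 229.8 CPM in the other libraries of that group. Its gap to the nearest library was 0.936 of the group's range, above the limit of 0.829 for 4 samples. The 9 genes in both groups gave 18 such checks, and chance alone marks about 1 in 20. Without that library the log2 fold change of *tba-4* was 0.15, against 0.12 with all libraries, and edgeR called it in neither fit.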

How the results depend on the processing

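The number of genes called over the whole table depended strongly on the fit: 26 in the fit reported, 251 in DESeq2, 929 with a covariate for the division of the replicates (449 higher, 480 lower), 273 within replicates 1 and 2 and 2078 within replicates 3 and 4. Leaving out 1 library gave 7 to 14 calls: without non-Tg replicates 1 to 4 there were 14, 10, 11 and 7, and without *smrd-1 Δ#1* replicates 1 to 4 there were 7, 12, 12 and 9. With a replicate block, 26 genes were called, 14 of them shared with the fit without it. In the blocked edgeR fit 3 members reached an unadjusted p under 0.05, where 23% of all genes did, and the block changed no call of a member. None of the 9 members was called by edgeR or DESeq2 under any alternative run. *ptl-1* kept a negative log2 fold change under all 16 alternatives, between -0.47 and -0.21, with edgeR or DESeq2 adjusted p from 0.0717 to 0.999, and so did *mec-7* (-0.42 to -0.15), *mec-12* (-0.46 to -0.10) and *tbb-4* (-0.38 to -0.08). The sign of *tbb-2* turned without *smrd-1 Δ#1* replicate 4 (leave-one-out range -0.11 to 0.010) and within replicates 1 and 2 (0.020), and that of *tba-1* turned within replicates 1 and 2 (0.034). The cause was not tested. The covariate and the fits within a side of the division were chosen after seeing the data. Depth was lowest for *tbb-4*, at 224 to 422 counts per library.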

Other observations

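The β-tubulin gene *ben-1*, the target of benzimidazole drugs in worms, was in neither the member set nor the lists and was added after its values were seen. It had 47.5, 51.7, 47.3 and 45.9 CPM in libraries labelled *smrd-1 Δ#1*, against 69.5, 57.0, 54.9 and 46.6 CPM in libraries labelled non-Tg. The groups overlapped only through replicate 4 of non-Tg, and the log2 fold change was -0.25 (SE 0.117, edgeR adjusted p = 0.646). Per kilobase it averaged 23.3 CPM in libraries labelled *smrd-1 Δ#1* and 27.6 CPM in libraries labelled non-Tg.

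*tba-8*, another α-tubulin gene, had the widest spread of the tubulins measured. It had 1.75, 1.59, 0.180 and 0.274 CPM in libraries labelled *smrd-1 Δ#1*, against 1.86, 4.86, 0.805 and 0.618 CPM in libraries labelled non-Tg. The highest library was 27.0 times the lowest, and the log2 difference between replicates 3 and 4 and replicates 1 and 2 was -2.41. The counts were low, with 14 and 22 in replicates 3 and 4 of *smrd-1 Δ#1* and 346 in replicate 2 of non-Tg. Within each side of the division both *smrd-1 Δ#1* libraries were below both non-Tg libraries, and the log2 fold change of -1.1 (SE 0.876) was not called (edgeR adjusted p = 0.725). With the covariate for the division it was -1.27, also not called (edgeR adjusted p = 0.0625).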
